A study of Mus musculus with 12 samples.

Results

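The small nucleolar RNA (snoRNA) host genes described here are Gas5, Snhg1, Snhg3, Snhg4, Snhg5, Snhg6, Snhg8, Snhg12 and Snhg15, taken by name from a list drawn up with earlier results of these data known. Of these 9 genes, 8 were matched to a row among the 51826 genes of the count table, and Snhg4 was not analysed here. All 8 passed the filter on low counts. RNA was sequenced from 12 cell lines grown from the bone marrow of 2 C57BL/6 mice. Marrow cells had been cultured with interleukin 7 (IL7), the growth factor of early B cells, and then transduced with a retroviral vector. The 6 EV lines carried the empty vector pMIG, stayed in IL7 and were sorted for green fluorescent protein (GFP), the vector's marker. The 6 BCR-ABL1 lines carried the BCR-ABL1 fusion kinase, the oncogene of Philadelphia chromosome-positive leukemia, and were grown without IL7 for 1 week until transformed. There were 3 lines per mouse and condition, named 1A to 1C for mouse 1 and 2A to 2C for mouse 2. BCR-ABL1, the absence of IL7 and the absence of the GFP sort coincide in every line and cannot be told apart. No animal age is given in the labels used here.

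SnoRNAs are short nuclear RNAs that guide the chemical modification and the processing of ribosomal RNA. Box C/D snoRNAs guide methylation of ribose, and most box H/ACA snoRNAs guide the conversion of uridine to pseudouridine. In mammals most snoRNAs are cut out of introns. The genes described here are host genes whose spliced RNA is noncoding, so that the introns hold the best understood product. Many host transcripts start with a pyrimidine tract (5′TOP), as do the mRNAs of ribosomal proteins and translation factors, and many spliced host RNAs are degraded by nonsense-mediated decay. The level of a host RNA in sequencing therefore reports the spliced and unspliced host transcript and not the amount of its snoRNAs.

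By the snoRNAs they hold, Gas5, Snhg1, Snhg5 and Snhg6 are hosts of box C/D snoRNAs, Snhg3, Snhg8 and Snhg15 are hosts of box H/ACA snoRNAs, and Snhg12 holds both kinds. In the annotation GENCODE M21 of the mouse genome GRCm38, 30 snoRNA genes lie inside the 8 hosts on the same strand. Gas5 (chr1:161034422-161038539, plus strand) holds 10, Snhg1 (chr19:8723475-8726443, plus strand) 8, Snhg5 (chr9:88521050-88522929, minus strand) 2 and Snhg6 (chr1:9941959-9944118, minus strand) 1. Snhg3 (chr4:132348014-132353686, minus strand) holds 2, Snhg8 (chr3:123507552-123508404, minus strand) 1 and Snhg15 (chr11:6525591-6528760, minus strand) 1. Snhg12 (chr4:132308623-132311024, plus strand) holds 5. Snhg6 and Snhg12 are annotated as long intergenic noncoding RNAs and the other 6 as processed transcripts.

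Many host promoters have a TATA-like box upstream of the start and a pyrimidine run at the start. The windows of Gas5, Snhg1, Snhg5, Snhg8 and Snhg12 are shown because these 5 have a TATA-like match upstream of the annotated start. Each line is 100 bases of GRCm38.p6 taken from the RefSeq promoter sequences, 50 bases before the annotated start and 50 from it, read 5′ to 3′ on the strand of the gene. Capitals mark a TATA-like match on either strand, with the letters TATAAA, or in Gas5 and Snhg12 TATATA, and the longest run of pyrimidines within 20 bases of the start.
Gas5, chr1:161035116-161035215, plus strand: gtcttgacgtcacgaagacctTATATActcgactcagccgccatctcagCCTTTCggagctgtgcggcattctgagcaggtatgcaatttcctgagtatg
Snhg1, chr19:8723437-8723536, plus strand: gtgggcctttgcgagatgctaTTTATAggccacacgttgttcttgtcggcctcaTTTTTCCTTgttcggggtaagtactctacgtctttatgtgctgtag
Snhg5, chr9:88522848-88522947, minus strand: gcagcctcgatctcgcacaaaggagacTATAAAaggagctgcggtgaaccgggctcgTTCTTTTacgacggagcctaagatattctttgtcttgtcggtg
Snhg8, chr3:123508287-123508386, minus strand: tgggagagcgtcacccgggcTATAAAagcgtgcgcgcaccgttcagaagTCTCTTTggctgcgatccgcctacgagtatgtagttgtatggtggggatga
Snhg12, chr4:132308628-132308727, plus strand: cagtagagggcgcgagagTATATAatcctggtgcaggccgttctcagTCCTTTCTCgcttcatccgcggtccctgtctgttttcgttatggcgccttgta
RefSeq windows were found for 7 of the hosts, with 2 windows for Gas5, and none was found for Snhg6. The pyrimidine run was 6 bases in the Gas5 window shown, and the other Gas5 window had no match and a run of 3 bases. TATAAA was present in 4 of the 8 windows (50.0%), against 4.94% of all 32851 RefSeq windows of the same length. The match in Snhg3 lies downstream of the start. TATATA was present in 2 of the 8 (against 1.8% of all windows), and either motif in 6 (against 6.24%). A pyrimidine run of at least 7 bases lay within 20 bases of the start in 4 of the 8 windows (50.0%, against 24.3%), and one of at least 8 bases in 2 of the 8 (against 16.0%). CACGTG, the E-box bound by MYC and related factors, was present in 1 window, that of Snhg15 (12.5%, against 2.92%). The motifs were chosen after the sequences were seen, a match is no evidence of binding, and these shares were not tested.

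Total counts ranged from 34791011 to 66011225 per line, and the hosts had between 910 and 40635 counts per line, so that counting error is small beside the spread between lines. Levels are given as CPM, the counts relative to the library size, scaled by the trimmed mean of M values (TMM), and errors are standard deviations over lines. All 10 markers of the B lineage were expressed, and their sum lay between 2692 and 4565 CPM over the EV lines, against 2692 and 3401 CPM over the BCR-ABL1 lines. The summed levels of the T and NK, myeloid, erythroid, mast cell and stromal markers reached at most 3.68, 1.1, 0.828, 0.184 and 1.23 CPM. Over all genes, the distance in log2 CPM to the mean of the other EV lines was 117 for EV line 2C, 114 for 2A and 113 for 2B, and 85.3 to 90.5 for the lines of mouse 1. Compared directly, EV lines 2A and 2B differed from 2C by a chi-square of 134 and 245 per gene, from each other by 31.2, and the EV lines of mouse 1 by 19.5 to 24.6, a measure that also grows with depth. The small nuclear RNA Rn7sk took 2.25 to 7.84% of all counts in EV lines, highest in 2A and 2B and lowest in 2C. In BCR-ABL1 lines it took 1.46 to 2.13%.

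The first comparison asked whether the host genes differ in level between BCR-ABL1 and EV lines. All 8 hosts were higher in BCR-ABL1 lines on average, by 1.58-fold to 2.2-fold. Snhg1, Snhg5 and Snhg15 rose by more than 1.5-fold by the main test, edgeR's glmTreat with Benjamini-Hochberg adjustment over all 15038 tested genes. This was 3 of 8 hosts, against a background of 5.99% of all tested genes called higher, and no host was called lower, where the background is 6.49%. The count was 0 with DESeq2 (background 4.19% of 22770 genes) and 0 in the lines of mouse 2 alone (background 3.99%). With DESeq2, 3 hosts had an unadjusted p under 0.05. No background was computed for counts at an unadjusted p, here or below. The count called was 1 without EV 1A, EV 1B, EV 2B or BCR-ABL1 2A, where the backgrounds are 5.48%, 5.35%, 6.44% and 5.35%. Against no change, by edgeR's quasi-likelihood test, all 8 rose (background 22.5%) and 0 fell (background 25.9%). The median log2 fold change was 0.85 over the 8 hosts and -0.02 over all tested genes. In total the 8 hosts summed to 562 to 897 CPM in the EV lines other than 2C, to 1350 CPM in EV line 2C and to 1353 to 1691 CPM in BCR-ABL1 lines. In bulk RNA, more RNA per cell and more cells expressing a gene cannot be told apart.

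Among the box C/D hosts, Gas5 was named for its accumulation in growth-arrested cells, and its RNA is also known to bind the glucocorticoid receptor. Gas5 in the EV lines was lowest at 259 CPM, with a median of 347 CPM and a highest value of 635 CPM. In the BCR-ABL1 lines it ranged from 591 to 737 CPM with a median of 624 CPM. Only EV line 2C reached the BCR-ABL1 lines, and 3 of these lines lay above it. The means were 387 ± 135 and 644 ± 58 CPM (SD, n = 6 each), a log2 fold change of 0.73 with a standard error (SE) of 0.19. Its edgeR adjusted p was 0.342 against 1.5-fold and 0.00687 against no change, and it was called as rising only by the second rule.

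Snhg1, which holds 8 box C/D snoRNA genes, ranged from 75.2 to 182 CPM in EV lines with a median of 105 CPM. In BCR-ABL1 lines it ranged from 204 to 272 CPM with a median of 238 CPM. Every BCR-ABL1 line was above every EV line, including 2C. The mean rose from 112 ± 37.8 to 236 ± 22.8 CPM (SD, n = 6), a log2 fold change of 1.08 (SE 0.19). The edgeR adjusted p was 0.0209 against 1.5-fold. Snhg1 was called in 20 of 22 other ways of running the test.

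Snhg5 hosts Snord50a and Snord50b, the U50 pair of box C/D snoRNAs. It ranged from 62.5 to 150 CPM in EV lines with a median of 80.6 CPM, and from 161 to 223 CPM in BCR-ABL1 lines with a median of 180 CPM. The groups did not overlap, and the highest EV value was again that of line 2C. The mean rose from 87 ± 32.3 to 184 ± 21.3 CPM (SD, n = 6), a log2 fold change of 1.08 (SE 0.20) with an edgeR adjusted p of 0.0268 against 1.5-fold. It was called in 16 of the 22 other ways.

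Snhg6 hosts Snord87 alone. It ranged from 27.9 to 71.1 CPM in EV lines (median 42.2 CPM) and from 77.6 to 101 CPM in BCR-ABL1 lines (median 83.1 CPM), so that the groups did not overlap. Its log2 fold change was 0.91 (SE 0.20), from a mean of 45.5 ± 15 to 85.8 ± 8.23 CPM (SD, n = 6). The edgeR adjusted p of 0.0897 against 1.5-fold missed the threshold, and that against no change was 0.00183. Snhg6 overlaps Mcmdc2 on the other strand, and the strand setting of the counting is not given in the sources used here, so reads of both genes cannot be told apart with certainty.

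Snhg15, host of the box H/ACA snoRNA Snora9, had the largest fold change of the 8. It ranged from 23.1 to 73.7 CPM in EV lines (median 34.1 CPM) and from 79.9 to 93.1 CPM in BCR-ABL1 lines (median 83 CPM). The 5 EV lines other than 2C lay at or under 36.3 CPM, and no EV line reached the BCR-ABL1 lines. The mean rose from 38.8 ± 17.7 to 85.6 ± 5.6 CPM (SD, n = 6), a log2 fold change of 1.14 (SE 0.23). The edgeR adjusted p was 0.0323 against 1.5-fold, and Snhg15 was called in 13 of the 22 other ways.

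Snhg3 is the host of the U17 snoRNAs Snora73a and Snora73b, which act in the cleavage of the ribosomal RNA precursor. It ranged from 20.1 to 54.6 CPM in EV lines (median 29.5 CPM) and from 51.1 to 69.9 CPM in BCR-ABL1 lines (median 53.3 CPM). EV line 2C lay within the BCR-ABL1 lines, and 2 of them were above it. The log2 fold change was 0.79 (SE 0.21), with edgeR adjusted p of 0.261 against 1.5-fold and 0.00738 against no change. Snhg3 lies within the span of Rcc1 on the same strand, so that reads may have been split between them. Rcc1, a factor of the RAN transport system, had 155 ± 35.3 CPM in EV and 188 ± 9.98 CPM in BCR-ABL1 lines (SD, n = 6), a log2 fold change of 0.28 (SE 0.15) with an edgeR adjusted p of 0.107 against no change.

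Snhg8, host of Snora24, and Snhg12, which holds both snoRNA kinds, had the smallest differences. Snhg8 ranged from 52.1 to 116 CPM in EV lines (median 76.5 CPM) and from 114 to 143 CPM in BCR-ABL1 lines (median 125 CPM). Its log2 fold change was 0.67 (SE 0.17), with edgeR adjusted p of 0.454 against 1.5-fold and 0.0051 against no change. For Snhg8 the groups overlapped only through EV line 2C. Snhg12 ranged from 25.3 to 67.5 CPM in EV lines (median 37.6 CPM) and from 58.1 to 77.2 CPM in BCR-ABL1 lines (median 64 CPM). Its log2 fold change was 0.66 (SE 0.23), with edgeR adjusted p of 0.55 against 1.5-fold and 0.0231 against no change.

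**Figure D1:**
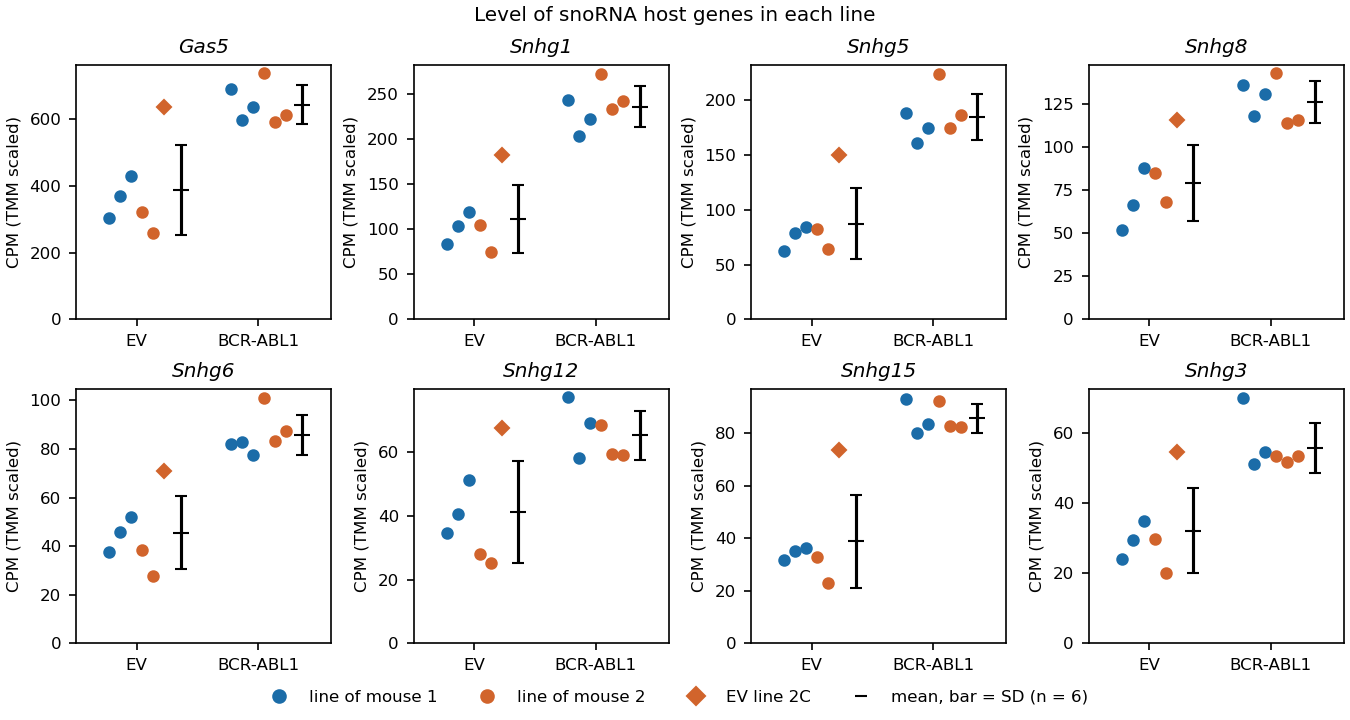
Level of each host gene in CPM (TMM scaled) in the 6 EV and 6 BCR-ABL1 lines, coloured by mouse, with the mean and SD beside each group and EV line 2C as a diamond. Snhg1, Snhg5, Snhg6 and Snhg15 do not overlap between the groups, and in the other 4 hosts EV line 2C lies among the BCR-ABL1 lines.

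The groups did not overlap for 4 of the 8 hosts (Snhg1, Snhg5, Snhg6 and Snhg15), where the background is 12.1% of all tested genes higher without overlap. The overlap in Gas5, Snhg3, Snhg8 and Snhg12 came from EV line 2C in each case. EV line 2C was the highest EV line for 8 of 8 hosts, whereas it was the highest EV line for 24.6% of all tested genes. Its level was 1.62 times (Snhg8) to 2.31 times (Snhg15) the mean of the other 5 EV lines. The mean of the BCR-ABL1 lines was between 0.966 times (Snhg12) and 1.3 times (Snhg1) the level in EV line 2C. Without EV line 2C, glmTreat called 6 of 8 hosts higher (background 8.83%), adding Gas5 (log2 fold change 0.93, edgeR adjusted p = 0.013), Snhg3 (1.01, 0.00861) and Snhg6 (1.09, 0.00453). Snhg8 (0.82, 0.0665) and Snhg12 (0.86, 0.0913) stayed uncalled. The B lineage markers summed to 2692 CPM in EV line 2C, the lowest EV value. Rn7sk took 2.25% of all counts in this line, also the lowest EV value. The part of either in the result was not tested.

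Within mouse 1, the log2 fold change ranged from 0.70 (Snhg12) to 1.32 (Snhg15). In this mouse 7 of 8 hosts were called by glmTreat (background 16.3%), all but Snhg12. Within mouse 2, whose EV lines include 2C, it ranged from 0.48 (Snhg8) to 1.06 (Snhg1) and 0 hosts were called by glmTreat (background 3.99%), with 1 at an unadjusted p under 0.05. Against no change, edgeR called 8 hosts higher in mouse 1 (background 34.6%) and 0 in mouse 2 (background 9.16%), where 4 had an unadjusted p under 0.05. The difference between the mice was tested with an interaction term for mouse by condition. It was called for 0 of 8 hosts (background 16.9%, with 10.8% lower and 6.1% higher in mouse 2), with 0 at an unadjusted p under 0.05 by the quasi-likelihood and by the likelihood ratio fit. With the mouse as a block, glmTreat called the same 3 hosts as without it (background 7.49%). Without EV line 2C, the interaction was called for 1 of 8 hosts (background 15.5% higher in mouse 2). This was Snhg6, whose change was then larger in mouse 2 by 0.62 on the log2 scale (edgeR adjusted p = 0.0285).

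**Figure D2:**
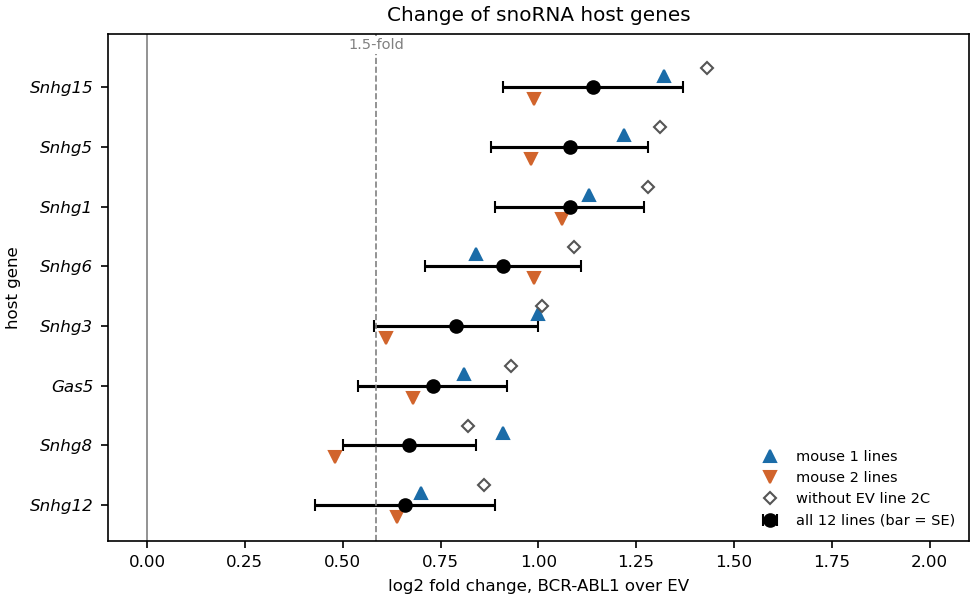
Log2 fold change of each host gene, BCR-ABL1 over EV, for all 12 lines (black, bar = SE), for each mouse and without EV line 2C, with the 1.5-fold mark dashed. All values lie above 0, from 0.48 (Snhg8, mouse 2) to 1.43 (Snhg15, without EV line 2C).

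Per kilobase of annotated exon, the order of the mean levels began with Gas5 and Snhg8 and ended with Snhg12 in both groups. In BCR-ABL1 lines Gas5 had 171 ± 15.4 and Snhg8 148 ± 14.2 CPM per kb (SD, n = 6), and their mean ± SD intervals met. Snhg5 followed with 107 ± 12.3 CPM per kb, below Snhg8 beyond that spread. Snhg1 (79.6 ± 7.67) and Snhg6 (74.8 ± 7.18 CPM per kb) were not separated by it, and neither were Snhg15 (63 ± 4.12) and Snhg3 (56.4 ± 7.22 CPM per kb). Snhg12 was lowest with 27.2 ± 3.2 CPM per kb. In EV lines Gas5 had 103 ± 35.9 and Snhg12 17.2 ± 6.64 CPM per kb, and no neighbours in the order were separated by their SD. In Gas5, Snhg1, Snhg5, Snhg8, Snhg12 and Snhg15 every snoRNA gene lies inside an annotated exon, so that the exon length of these 6 includes retained introns. Their levels per kb are lower estimates for the spliced RNA, and how far this sets the order was not tested.

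The hosts varied together between EV lines, while between BCR-ABL1 lines not every pair did. Over the 6 EV lines, the 28 pairs of hosts had Pearson correlations of log2 CPM from 0.628 to 0.998, with a median of 0.947. Over the 6 BCR-ABL1 lines they ranged from -0.201 to 0.965, with a median of 0.742. The points share libraries and scaling, and EV line 2C is the highest point in every EV pair, so these are descriptions. The gene most like each host was sought among 11054 tested genes by the smaller of the correlations over the EV and over the BCR-ABL1 lines. Snhg1 was most like Gtpbp4 (0.967), a factor of large ribosomal subunit assembly, and then Snhg5 (0.965). Snhg15 was most like Pes1 (0.982), another such factor, and Mrps18b (0.978), a mitochondrial ribosomal protein. Snhg12 was most like Wdr75 (0.954) and Nsun5 (0.953), Gas5 like Wdr55 (0.966) and Yars2 (0.965), and Snhg6 like Ankrd49 (0.974) and Tfam (0.965). Snhg5 was most like Snhg1 (0.965) and Gtf2h1 (0.958), Snhg3 like Mcrip2 and Ddx10 (0.951 each), and Snhg8 like Trnt1 (0.947) and Smim11 (0.936).

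The snoRNA genes inside the hosts have rows of their own. Of the 30, 26 had 0 counts in every line, and all 26 overlap an annotated exon of their host. Only Snora73b and Snord87 overlap no host exon, and only these and Snora73a had over 10 counts in 6 or more lines. Of the 28 that overlap a host exon, 26 had 0 counts, against 0 of the 2 that do not. How reads lying in both a snoRNA gene and a host exon were counted was not tested. Mature snoRNAs are short, and how such fragments fared in the library preparation was not tested either. Counts of 0 therefore do not show that a snoRNA was absent from the cells. The sequences of Snord87 and Snora73b are shown because only these lie outside the annotated exons of their hosts, in GRCm38 coordinates of GENCODE M21. Capitals mark TGATGA and CTGA in Snord87, the letters of the C and D boxes, and the ACA near the end of Snora73b.
Snord87, chr1:9942463-9942549, minus strand: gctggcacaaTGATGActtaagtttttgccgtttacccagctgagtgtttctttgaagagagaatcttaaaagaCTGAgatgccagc
Snora73b, chr4:132352322-132352526, minus strand: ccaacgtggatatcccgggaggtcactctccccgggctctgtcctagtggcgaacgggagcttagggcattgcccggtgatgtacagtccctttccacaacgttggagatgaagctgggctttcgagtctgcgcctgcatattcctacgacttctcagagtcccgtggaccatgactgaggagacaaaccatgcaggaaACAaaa

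Snord87, inside Snhg6, ranged from 0.282 to 1.32 CPM in EV lines (median 0.547 CPM) and from 1.42 to 2.23 CPM in BCR-ABL1 lines (median 1.55 CPM). The groups did not overlap, and EV line 2C was again the highest EV line. The log2 fold change was 1.40 (SE 0.29), and Snord87 rose by more than 1.5-fold with an edgeR adjusted p of 0.0278. It was called in mouse 1 alone (log2 fold change 1.74, edgeR adjusted p = 0.00123 against 1.5-fold). In mouse 2 alone it was not called (1.14, edgeR adjusted p = 0.371 against 1.5-fold and 0.115 against no change). The Snord87 counts lie in an intron of Snhg6 and may be unspliced host RNA as well as the snoRNA, which cannot be told apart.

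Snora73b, inside Snhg3, went the other way in its mean but not in every line. It was 225 CPM in EV line 2A and 126 CPM in EV line 2B, and from 28.7 to 62.8 CPM in the other EV lines. In BCR-ABL1 lines it ranged from 28.1 to 48.7 CPM. Lines 2A and 2B are also the EV lines with the highest Rn7sk, at 7.84 and 6.36% of counts, and the part of this in the result was not tested. The log2 fold change was -1.16 (SE 0.50), with edgeR adjusted p of 0.278 against 1.5-fold and 0.0598 against no change. Snora73a lay between 0.462 and 1.73 CPM over the EV lines and between 0.706 and 1.48 CPM over the BCR-ABL1 lines, with an edgeR adjusted p of 0.476 against no change. Snora73a and Snora73b are identical at 198 of 205 positions (96.6%), so their counts are uncertain.

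**Figure D3:**
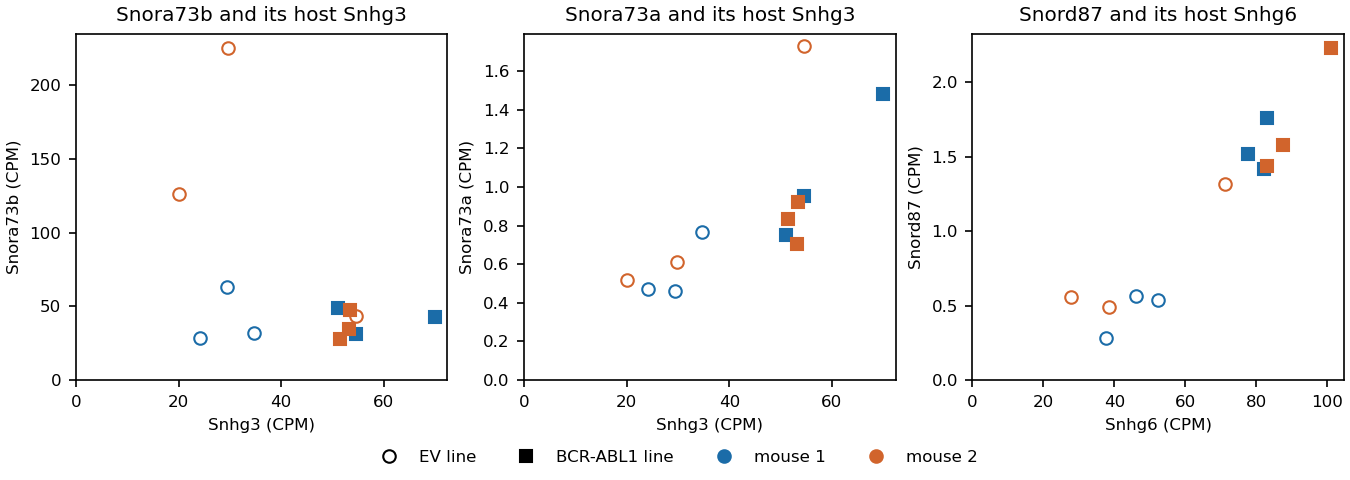
CPM of Snora73b, Snora73a and Snord87 against CPM of their hosts in each line (open circles EV, filled squares BCR-ABL1, coloured by mouse). Snord87 and Snhg6 are both higher in the BCR-ABL1 lines, while Snora73b is highest in EV lines 2A and 2B, at 225 and 126 CPM.

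Coding genes start close to 2 hosts on the opposite strand. Zbtb37, a zinc finger gene, overlaps Gas5 as annotated in GENCODE M21, where their starts lie 427 bases apart. The Gas5 promoter window shown above, chr1:161035116-161035215, surrounds a later start and lies outside Zbtb37, whose span ends at 161034849. Zbtb37 had 62.6 ± 11.1 CPM in EV and 44.2 ± 3.89 CPM in BCR-ABL1 lines (SD, n = 6). It fell by 0.50 on the log2 scale (SE 0.12, edgeR adjusted p = 0.00378 against no change), opposite to Gas5. Since the strand setting of the counting is not known, reads of Gas5 and Zbtb37 in their overlap cannot be told apart with certainty, and the same holds for Snhg3 and Gm17300 on its opposite strand. Slc3a2, which encodes the heavy chain of amino acid transporters and starts 106 bases from Snhg1, had 62.3 ± 23 CPM in EV and 97.3 ± 11.3 CPM in BCR-ABL1 lines (SD, n = 6). It rose by 0.64 (SE 0.21, edgeR adjusted p = 0.0187 against no change), as did Snhg1. In EV line 2C it had 105 CPM, within the 83.7 to 108 CPM of the BCR-ABL1 lines, and the other EV lines had at most 63.9 CPM. In mouse 2 alone neither Slc3a2 (edgeR adjusted p = 0.186 against no change) nor Zbtb37 (0.248) was called.

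Of 13 other noncoding host transcripts listed, 12 were matched, with Snhg16 under an older symbol, and 10 were tested with all lines. By glmTreat 2 rose, Zfas1 and Mir17hg, and 0 fell, where the backgrounds are 5.99% and 6.49%. Both were called in mouse 1 alone (edgeR adjusted p = 0.000392 and 0.00181 against 1.5-fold). Neither was called in mouse 2 alone (0.437 and 0.318 against 1.5-fold, 0.0875 and 0.097 against no change). Without EV line 2C, 3 rose, with Snhg16 added, and 1 fell, Snhg14 (backgrounds 8.83% and 9.35%). Zfas1, host of box C/D snoRNAs, rose from 85.9 ± 25 to 165 ± 12.5 CPM (SD, n = 6), a log2 fold change of 0.94 (SE 0.16, edgeR adjusted p = 0.0429). Mir17hg, host of a cluster of growth-associated microRNAs, rose from 77.8 ± 31.7 to 165 ± 12.8 CPM (log2 fold change 1.09, SE 0.24, edgeR adjusted p = 0.0467). Against no change 5 of the 10 rose and 1 fell (backgrounds 22.5% and 25.9%), and the median log2 fold change was 0.56. Snhg14 was the gene that fell by 2.51 on the log2 scale (edgeR adjusted p = 0.0252 against no change), with 9.08 CPM in EV line 2A and 0.369 to 1.91 CPM in the other EV lines.

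**Figure D4:**
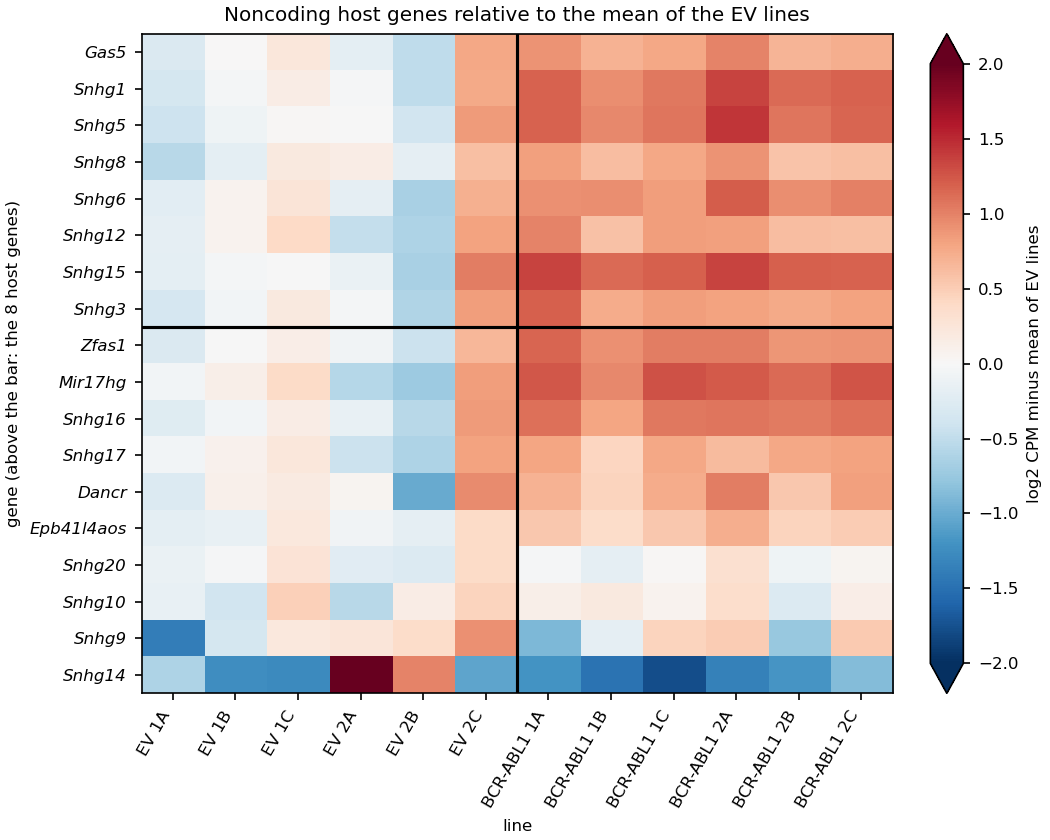
Log2 CPM of the 8 host genes (above the bar) and of other noncoding host genes in each line, minus the mean of the EV lines. The 8 hosts are higher in every BCR-ABL1 line than in the 5 EV lines other than 2C, and Snhg20, at a log2 fold change of 0.00, shows no such step.

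Proteins that bind and assemble snoRNAs were counted beside their hosts. Of 18 snoRNP proteins, 0 were called by glmTreat (backgrounds 5.99% higher and 6.49% lower). Against no change 13 rose, 1 fell and 4 passed neither (backgrounds 22.5% and 25.9%), with a median log2 fold change of 0.57. The gene that fell was Pih1d1, an assembly factor, by 0.37 on the log2 scale. Without EV line 2C, glmTreat called 7 of the 18 higher (background 8.83%), and these were Nop58, Nhp2, Dkc1, Nop56, Gar1, Nolc1 and Naf1. Examples chosen after their values were seen were the box C/D core protein Nop58 (1.01, SE 0.23, edgeR adjusted p = 0.00325 against no change) and the pseudouridine synthase Dkc1 (0.90, SE 0.25, edgeR adjusted p = 0.00816). Of 15 genes with 5′TOP transcripts, 0 were called by glmTreat, with the same backgrounds. Against no change 9 rose and 0 fell, which is 60% and 0% against 22.5% and 25.9%, with a median of 0.32. Without EV line 2C, glmTreat called 1 of the 15 higher (background 8.83%), Npm1, a nucleolar chaperone. Of 10 factors of nonsense-mediated decay, 0 were called by glmTreat. Against no change 1 rose (Smg8) and 2 fell (Smg6 and Smg1), which is 10% and 20%. Both shares lie under the 22.5% and 25.9% of all tested genes, and the median was -0.03. Pih1d1, Smg8, Smg6, Smg1 and the genes called only without EV line 2C were named after their values were seen. Of 204 tested protein coding snoRNA hosts, 7 rose and 2 fell by glmTreat, which is 3.43% and 0.98% against 5.99% and 6.49% of all tested genes. Without EV line 2C these counts were 29 and 5 (backgrounds 8.83% and 9.35%). Against no change, 90 rose and 26 fell, which is 44.1% and 12.7% against 22.5% and 25.9%, with a median of 0.28. The 4 called genes with the largest fitted change were low in 1 group, and their levels are given in place of a fold. Sash1 had 0.505 to 8.92 CPM in EV lines and fell to 0.0193 to 0.272 CPM with BCR-ABL1. Maged2, Enthd1 and Lrrc4c rose, from at most 0.429, 0.307 and 0.368 CPM in any EV line to at most 2.61, 1.81 and 2.22 CPM in BCR-ABL1 lines, and the groups overlapped in Lrrc4c. Gnl3, a nucleolar GTPase of proliferating cells chosen after its value was seen, rose by 1.23 (edgeR adjusted p = 0.0439).

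**Figure D5:**
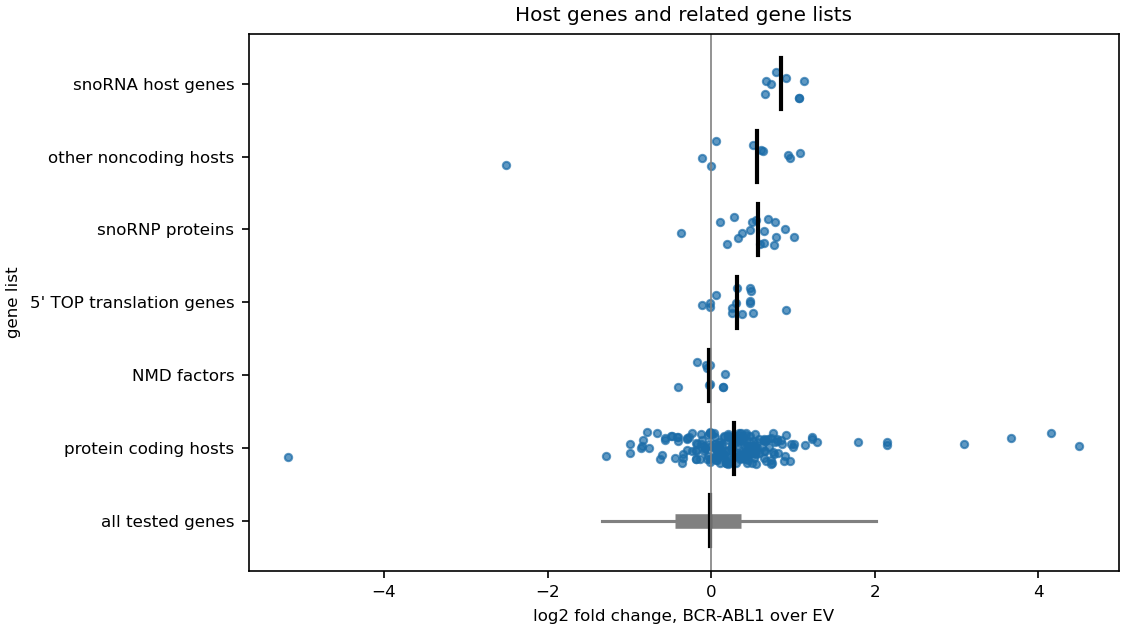
Log2 fold change, BCR-ABL1 over EV, of each tested gene of the listed groups (points, with the median as a bar) and of all tested genes (line from the 5th to the 95th percentile, box from the 25th to the 75th). The medians are 0.85 for the 8 hosts, 0.57 for snoRNP proteins and -0.02 for all tested genes.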

How the data were processed

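The authors made stranded total RNA libraries (TruSeq Gold) from ReliaPrep RNA and sequenced paired ends. Per the submitters' processing notes, FastQC 0.11.5, Trimmomatic 0.36, TopHat2 2.1.1, Bowtie2 2.3.2, featureCounts 1.5.3, R 3.6.1 and edgeR 3.18.1 were used with GRCm38. The authors deposited whole-number counts per gene without normalization. Their annotation release, strand setting and treatment of multiply mapped reads are not given in the sources used here.

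Symbols and positions came from GENCODE M21, which held 51633 of 51826 identifiers. Counts were tested with edgeR 4.0.16, which builds on limma 3.58.1, in R 4.3.3. The steps were filterByExpr, TMM, quasi-likelihood fit, glmTreat against 1.5-fold, and glmQLFTest against no change and for the interaction, with Benjamini-Hochberg adjustment over 15038 genes and a threshold of 0.05. The fit was tested on simulated data. Log2 CPM used a prior count of 2, and SEs come from the spread between lines. A count of 3 was taken as the floor. Alternatives, among them DESeq2 1.42.0, are given in the closing section. Plots used matplotlib 3.10.9.

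All host genes were named. Of each list, up to 4 genes called by glmTreat were named, largest change first. Also named were all divergent neighbours, snoRNAs with over 10 counts in at least 6 lines, and the 2 genes most like each host whose average log2 CPM was 1 or more. Exceptions are marked as chosen after their values were seen, and Snhg20, Snhg18 and Snhg11 are further exceptions of this kind. The hosts and lists were chosen with earlier results of these data known. Lines of 1 mouse share an animal, so p-values over 6 lines treat them as independent. Lines of the same mouse deviated together (correlations of 0.0853 to 0.24, against -0.203 to -0.0636 between mice).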

Additional observations from a re-analysis of the deposited data

Results flagged for a closer look

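In 24 genes (the 8 hosts, 10 other noncoding hosts, 3 snoRNAs and the neighbours Zbtb37, Slc3a2 and Rcc1), the highest and lowest line of each group of 6 was compared with its nearest neighbour, the gap being divided by the range of the group and set against Dixon's critical value for 6 samples. Of 48 groups, 8 passed, and chance passes about 1 in 20. Among the hosts, EV line 2C stood above the other EV lines in Snhg5 (0.749) and Snhg15 (0.741), and BCR-ABL1 line 1A above the other BCR-ABL1 lines in Snhg3 (0.814). Among snoRNAs, EV line 2C stood above in Snord87 (0.728) and Snora73a (0.759), and BCR-ABL1 line 1A in Snora73a (0.677). Of the other hosts, EV line 2A stood above in Snhg14 (0.823), and BCR-ABL1 line 1B below in Snhg16 (0.782).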

How the results depend on the processing

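All 8 hosts kept a higher level in BCR-ABL1 lines under 22 of 22 alternatives, and all 8 were called against no change under 19 (background 22.5% with all lines). The count called above 1.5-fold was 3 with all lines (background 5.99%). With DESeq2 it was 0 (background 4.19%), with 3 hosts at an unadjusted p under 0.05. In mouse 2 alone it was 0 (background 3.99%), and against no change also 0 (background 9.16%). In mouse 1 alone the count above 1.5-fold was 7, where the background was also higher, at 16.3%. Leaving out 1 line at a time gave 1 to 6. It was 1 without EV 1A, EV 1B, EV 2B or BCR-ABL1 2A, and 6 without EV 2C. The share of all tested genes called higher was 5.35 to 8.83% over these 5 fits, against 5.99% with all lines. The count with a different change between the mice was 0 with all lines (background 16.9%). Over the alternatives it was 0 to 1, and 1 without EV 2C (background 15.5% higher in mouse 2). With the mouse as replicate block the count above 1.5-fold remained 3 (background 7.49%), as it did with the line number. Other scalings, filters and the likelihood ratio fit also gave 3. The cause was not tested. Counts of 910 and more per line leave counting error small.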

Other observations

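Snhg18, a noncoding host, fell below the filter with all lines and was not tested in that fit. Most of its counts came from lines of mouse 2 other than EV line 2C, and a difference between the mice was not tested for it. In mouse 2 alone its log2 fold change was 1.84, with edgeR adjusted p of 0.569 against 1.5-fold and 0.251 against no change. Without EV line 2C it was 1.62 (edgeR adjusted p = 0.777 against 1.5-fold), again not called. In mouse 2 it had 3.35, 2.6 and 2.1 CPM in BCR-ABL1 lines 2A, 2B and 2C, and 1.47 and 0.874 CPM in EV lines 2A and 2B. EV line 2C and the 3 EV lines of mouse 1 had 0 counts, and BCR-ABL1 lines 1A, 1B and 1C had 4, 2 and 1 counts. Snhg11 reached at most 10 counts in any line, in EV line 2A.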
